A study of Mus musculus with 8 samples.

Results

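Cytochrome P450 enzymes are haem proteins of the endoplasmic reticulum that oxidise drugs, steroids, fatty acids and other fat-soluble compounds, and the liver holds most of them. Many of their genes lie in tandem arrays of close copies. The arrays studied here carry the mouse Cyp2c, Cyp3a, Cyp2d and Cyp4a families and a joint Cyp2a and Cyp2b array, called Cyp2a-2b below. Methylation was read at CCGG sites, so the results describe how methylated these arrays were in liver and whether that differed with the diet. The sites were taken by position, as all HpaII sites listed in all 8 livers within 5 windows of the mm9 build. The windows themselves were chosen with earlier results of these data known. The windows were chr19:39050000-40300000 for Cyp2c, chr5:146150000-146950000 for Cyp3a, chr15:82180000-82450000 for Cyp2d, chr4:114750000-115300000 for Cyp4a and chr7:26300000-27800000 for Cyp2a-2b. They held 1725 of the 1310003 sites listed in every liver.

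The livers came from C57BL/6J mice that received a high-fat diet with lingonberries (n = 4) or the same high-fat diet alone (HFD, n = 4), so every mouse, controls included, was on the high-fat diet. The study asked how hepatic methylation compared between these diets. The labels give no age, berry dose or time on the diet. They name the tissue as liver, with no expression data here to check it against, and identify no individual mouse, so the p-values reflect only how far the 8 samples spread. HELP-tagging cuts DNA with HpaII, which spares a CCGG whose central CpG is methylated, and sets the tags at each site against those from MspI, which cuts the site in either state. The m-score of a site runs from 0 at the methylated end, where no HpaII tag was found, to 100 at the unmethylated end. It ranks a site within its own liver and gives no absolute methylation level. The lingonberry libraries held 6104751 to 16060380 HpaII tags and the HFD libraries 5858601 to 7411193, and the 3 deepest were lingonberry libraries.

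Of the 1725 sites, 950 had at least 10 tags in the MspI reference and were used for all values below unless another minimum is named. That is 55.1% of them, against 71.3% of the other autosomal sites. Cyp2c kept 138 of 359 sites, Cyp3a 147 of 307, Cyp2d 98 of 154, Cyp4a 89 of 162 and Cyp2a-2b 478 of 743. Cyp2a-2b thus supplied about as many sites as the other families together. Close gene copies also share tags. Fractional tag numbers, read as tags divided between several sites, were found at 24.6% of the P450 sites, against 4.24% of the other autosomal sites. The share was 53.1% in Cyp3a, 24.6% in Cyp2c, 23.5% in Cyp2d, 20.2% in Cyp4a and 16.9% in Cyp2a-2b. The score of such a site may therefore belong in part to another copy.

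Promoter sequences show how close the copies are and how few CCGG sites their starts offer to this assay. RefSeq promoters of the GRCm38.p6 build, from 250 bases before to 50 after each start, were available as 44 sequences for genes of these families. The motif CCGG, which reads the same on both strands, occurred in 8 of the 44 (18.2%), against 17338 of all 32851 promoters of the same length (52.8%). None of 14 Cyp2c, 9 Cyp3a or 4 Cyp4a promoters held it, against 2 of 5 in Cyp2d and 6 of 12 in Cyp2a-2b. The 6 were those of Cyp2s1, Cyp2b13, Cyp2b9, Cyp2a4, Cyp2a22 and Cyp2t4. As the methylation files use mm9 and no mm9 genome or gene annotation was used here, no site was placed on a gene, a promoter, an exon or an intron. Results are therefore given by window and position. In GRCm38, other coding genes lie between the P450 genes, 18 in the Cyp2d span, 5 in Cyp2a-2b and 3 in Cyp3a. The Cyp2d and Cyp3a spans are longer than their windows, and the Cyp2c, Cyp4a and Cyp2a-2b spans are shorter than theirs. A family's name below thus stands for all sites of its window. These may include sites of other genes or outside the P450 span, and may miss some of the family's own.

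The first 4 sequences below are the pairs of like copies that hold a CCGG, which is in capitals. The last 2, from a Cyp2c and a Cyp3a gene of the liver, hold none. Each is 300 bases, read 5′ to 3′ on the gene's strand.
Cyp2b13, chr7:26061245-26061544, plus strand: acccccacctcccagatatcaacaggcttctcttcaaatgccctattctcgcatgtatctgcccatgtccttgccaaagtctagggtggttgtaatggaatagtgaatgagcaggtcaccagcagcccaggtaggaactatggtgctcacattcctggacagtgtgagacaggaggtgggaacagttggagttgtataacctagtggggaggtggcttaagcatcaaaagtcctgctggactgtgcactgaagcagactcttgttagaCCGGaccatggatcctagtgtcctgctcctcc
Cyp2b9, chr7:26173159-26173458, plus strand: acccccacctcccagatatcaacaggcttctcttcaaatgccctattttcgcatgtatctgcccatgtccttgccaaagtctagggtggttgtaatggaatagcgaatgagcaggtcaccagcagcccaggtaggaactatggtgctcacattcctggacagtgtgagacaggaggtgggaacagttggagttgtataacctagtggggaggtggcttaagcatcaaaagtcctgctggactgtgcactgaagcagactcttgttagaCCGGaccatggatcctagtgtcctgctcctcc
Cyp2d11, chr15:82393973-82394272, minus strand: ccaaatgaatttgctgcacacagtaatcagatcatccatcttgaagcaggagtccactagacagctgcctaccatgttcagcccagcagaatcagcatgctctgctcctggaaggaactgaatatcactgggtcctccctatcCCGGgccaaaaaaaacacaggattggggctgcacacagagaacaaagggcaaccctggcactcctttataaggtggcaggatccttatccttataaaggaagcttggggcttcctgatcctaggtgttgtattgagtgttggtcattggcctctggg
Cyp2d9, chr15:82452127-82452426, plus strand: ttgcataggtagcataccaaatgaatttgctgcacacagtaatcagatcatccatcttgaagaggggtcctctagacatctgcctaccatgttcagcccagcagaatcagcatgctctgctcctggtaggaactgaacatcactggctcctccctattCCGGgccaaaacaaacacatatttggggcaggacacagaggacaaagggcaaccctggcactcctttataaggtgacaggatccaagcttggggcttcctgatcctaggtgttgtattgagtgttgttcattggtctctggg
Cyp2c29, chr19:39286835-39287134, plus strand: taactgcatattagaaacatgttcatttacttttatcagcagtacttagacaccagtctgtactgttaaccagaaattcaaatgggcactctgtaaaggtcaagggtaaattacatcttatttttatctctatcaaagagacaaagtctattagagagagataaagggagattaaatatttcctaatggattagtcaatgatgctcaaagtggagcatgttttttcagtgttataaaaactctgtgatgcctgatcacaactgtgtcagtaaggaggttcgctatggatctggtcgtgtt
Cyp3a11, chr5:145879805-145880104, minus strand: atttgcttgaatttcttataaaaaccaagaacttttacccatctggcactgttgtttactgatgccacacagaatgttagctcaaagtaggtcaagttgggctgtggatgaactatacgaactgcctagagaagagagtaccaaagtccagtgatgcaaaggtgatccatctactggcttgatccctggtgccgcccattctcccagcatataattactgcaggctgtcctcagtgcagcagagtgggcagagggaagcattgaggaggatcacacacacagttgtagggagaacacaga

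The Cyp2b13 and Cyp2b9 promoters matched at 298 of 300 bases (99.3%), with the CCGG at position 269 of both, counted from the first base printed. The match ran unbroken for 164 bases before the CCGG and 28 bases after it. A short tag from this site could thus come from either gene. Cyp2d11 and Cyp2d9 matched at 267 bases, with 17 mismatches and 32 gap positions (84.5% identity). Their CCGG lies at position 144 in Cyp2d11 and 159 in Cyp2d9, the base just before it differs, and the 7 bases after it are the same.

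The Cyp2c and Cyp3a arrays were the most methylated of the 5. Cyp2c genes encode oxidases of drugs and arachidonic acid, and Cyp3a genes encode major steroid and drug oxidases of liver. The mean m-score of Cyp2c was 12.57 ± 2.26 (SD over 8 livers) and that of Cyp3a was 13.98 ± 1.95, against 29.26 ± 0.874 at the other autosomal sites. Cyp4a, whose enzymes hydroxylate fatty acids at their far end, stood between at 21.34 ± 2.50. Cyp2d, the family of the human drug oxidase CYP2D6, reached 31.43 ± 1.17, and Cyp2a-2b, whose enzymes oxidise coumarin, steroids and some drugs, reached 30.85 ± 0.954. Neighbours in this order were set apart by their spread only in part. Cyp3a exceeded Cyp2c by 1.41 ± 2.06 (SD) and in 6 of 8 livers, and Cyp2d exceeded Cyp2a-2b by 0.58 ± 0.924 and in 7 of 8, so neither pair differed beyond its spread. Cyp4a exceeded Cyp3a by 7.36 ± 2.70, and Cyp2a-2b exceeded Cyp4a by 9.51 ± 2.00, each in 8 of 8 livers.

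Set against the other autosomal sites of the same liver, Cyp2c was lower by 16.7 on average (difference -16.7 ± 1.78, SD over 8 livers). Cyp3a differed by -15.3 ± 1.58 and Cyp4a by -7.92 ± 1.77. In all 3 families the score was lower in 8 of 8 livers (two-sided exact sign-flip permutation test over 256 assignments, p = 0.00781, the smallest it can give, Benjamini-Hochberg adjusted over 5 families p = 0.00977). Cyp2a-2b was higher by 1.59 ± 0.634 in 8 of 8 livers, with the same exact adjusted p of 0.00977. Cyp2d differed by 2.17 ± 1.35 (exact adjusted p = 0.0156), and HFD replicate 3 was the liver in which it was lower. This test reads only how repeatable a difference is over the 8 livers. It does not compare these windows with other windows of the genome. The size of the difference in Cyp2c and Cyp3a depended on the setting, while its direction and call held under the alternatives run. With window edges moved out by 100 kb it was -8.85 in Cyp2c and -9.76 in Cyp3a. With an MspI minimum of 50 tags it was -31.3 in Cyp2c and -29.6 in Cyp3a, and from summed tags -34.0 in Cyp2c, -34.2 in Cyp3a and -17.1 in Cyp4a. The small excess in Cyp2a-2b and Cyp2d did not last under all settings. With an MspI minimum of 1 tag the difference was -0.371 for Cyp2a-2b and -0.146 for Cyp2d, and with a minimum of 50 tags it was -6.64 for Cyp2d. For Cyp2d it was also -3.94 where its tags were summed to a single score. With window edges moved out by 100 kb, Cyp4a changed sign to 4.47 and Cyp2a-2b was higher by 0.276 with an exact adjusted p of 0.273.

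Cyp2c and Cyp3a were also low for the density of their sites. The genome's isolated CCGG sites are mostly methylated and its crowded ones mostly not, so each family was also compared with the mean of other autosomal sites of the same number of neighbours within 500 bp. On this measure Cyp2c was 10.6 ± 1.57 below that expected score (difference -10.6) and Cyp3a 9.02 ± 1.63 below it (difference -9.02). The difference was -2.12 ± 1.54 for Cyp4a, 2.99 ± 1.37 for Cyp2d and 1.62 ± 0.626 for Cyp2a-2b. All 5 families were lower than their own flanks of 1 Mb on each side in 8 of 8 livers. The difference from the flanks was -19 ± 1.87 for Cyp4a, -16.8 ± 1.88 for Cyp2c, -13.2 ± 1.84 for Cyp3a, -7.02 ± 0.968 for Cyp2a-2b and -5.03 ± 1.29 for Cyp2d. These differences from expected scores and flanks are given without a test.

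The families differed in the kind of site they hold. Sites with a mean score below 25 made up 84.8% of Cyp2c, 78.9% of Cyp3a, 64.0% of Cyp4a, 54.6% of Cyp2a-2b and 54.1% of Cyp2d, against 58.5% of the other autosomal sites. Sites at 75 or above numbered 52 in Cyp2a-2b, 9 in Cyp2d and 1 in Cyp4a, and there were 0 in Cyp2c and 0 in Cyp3a. As shares these were 10.9%, 9.18% and 1.12%, against 11.8% of the other autosomal sites. The highest site of each family followed the same order, with 92.5 in Cyp2a-2b, 87.7 in Cyp2d, 77.4 in Cyp4a, 73.3 in Cyp3a and 69.6 in Cyp2c. No HpaII tag in any liver was found at 95 of the 950 sites (10.0%), against 6.86% of the other autosomal sites. The median P450 site had 1.62 HpaII tags per liver and the median other autosomal site 2.0. HpaII tags are the methylation reading itself, and the median number of MspI tags was 25 in both sets. What lies behind the difference in share was not tested. A site at 0 shows only that no tag was found at this depth. As no molecular identifiers were used, statements on depth cover counting error only.

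**Figure D1:**
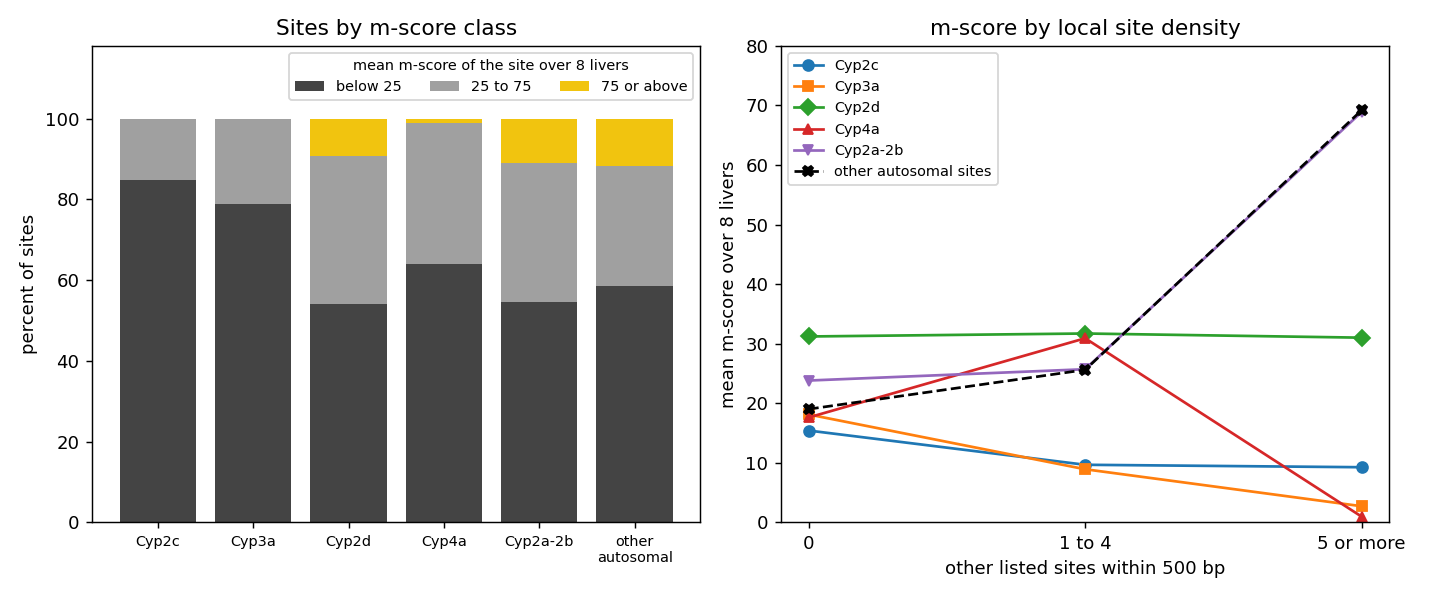
Left, percent of the sites of each P450 family and of the other autosomal sites whose mean m-score over 8 livers was below 25, from 25 to 75, or 75 or above. Right, mean m-score (0 methylated, 100 unmethylated) against how many further listed sites lie within 500 bp. Cyp2c and Cyp3a have no site at 75 or above, and of the 5 families Cyp2a-2b alone follows the rise of the other autosomal sites to 69.2 at crowded sites.

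CCGG sites are sparse in these windows, and only that of Cyp2a-2b had a high mean score at its crowded sites. Listed sites numbered 2.87 per 10 kb in Cyp2c, 2.95 in Cyp4a, 3.84 in Cyp3a, 4.95 in Cyp2a-2b and 5.70 in Cyp2d, and the longest stretch without any was 51.6 kb, in Cyp3a. Sites with 5 or more neighbours within 500 bp numbered 87, of which 64 lay in Cyp2a-2b, with a mean score of 68.9. Elsewhere in the autosomes such sites averaged 69.2. The 12 of Cyp2d averaged 31.0, the 3 of Cyp2c 9.24, the 4 of Cyp3a 2.69 and the 4 of Cyp4a 0.942. The Cyp2d mean mixes unlike places. Of its 12 sites, 5 lay in the first 54 kb of the window, where a run of 7 close sites averaged 69.66. Another 5 lay from 82342001 to 82396000, where a run of 7 close sites, 6 with shared tags, averaged 6.39. Crowded sites in these 4 families were thus few and, apart from those of Cyp2d, at the methylated end. Isolated sites with no neighbour went the other way in Cyp2d, at 31.2, against 19 at isolated sites elsewhere in the autosomes. In Cyp2a-2b they stood at 23.8, in Cyp3a at 18.1, in Cyp4a at 17.6 and in Cyp2c at 15.4.

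Scores of neighbouring sites were close in the methylated arrays. For pairs of adjacent sites within 500 bp, the median absolute difference was 4.97 in Cyp2c, 4.81 in Cyp3a and 5.10 in Cyp4a. These values rest on 22, 23 and 15 pairs, in arrays where most sites score below 25. Elsewhere in the autosomes the median was 9.27. It was 12.4 in Cyp2d and 11.5 in Cyp2a-2b. Sites with shared tags scored lower than the rest of their family in 8 of 8 livers in Cyp4a (14.12 against 23.18), Cyp2a-2b (23.54 against 32.34) and Cyp2d (28.58 against 32.30), as they did elsewhere in the autosomes (23.72 against 29.51). In Cyp2c they scored higher, at 14.75 against 11.86, in 8 of 8 livers, and in Cyp3a at 15.12 against 12.69 in 6 of 8. The part of shared tags in the family levels was measured by leaving these sites out. The difference from the other autosomal sites was then -17.6 in Cyp2c, -16.8 in Cyp3a, -6.33 in Cyp4a, 2.80 in Cyp2d and 2.84 in Cyp2a-2b.

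Along each window the score was far from even in the 3 families with unmethylated sites. Each window was divided into 5 equal parts from its low to its high coordinate. In Cyp2a-2b, with parts of 300 kb, the mean score was 36.79, 30.27, 18.27, 15.25 and 19.42 in that order. The first part held 46 of the 52 sites at 75 or above and all 64 crowded sites. In GRCm38 the P450 span is shorter than this window. The first part may therefore lie outside the P450 genes, which could not be settled without placing sites on genes. In Cyp2d, with parts of 54 kb, the means were 49.86, 36.91, 7.83, 15.25 and 10.78, and all 9 sites at 75 or above lay in the first 68 kb. The means in Cyp4a, with parts of 110 kb, were 34.33, 14.72, 2.17, 13.78 and 11.49. The high scores of these families thus gathered in the low-coordinate part of the window and, from part 3 on in Cyp2d and part 2 on in Cyp4a, part means were 15.25 or lower. Cyp2c had means between 9.72 and 14.17 in its 5 parts of 250 kb, and Cyp3a between 10.48 and 16.80 in its 5 parts of 160 kb.

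**Figure D2:**
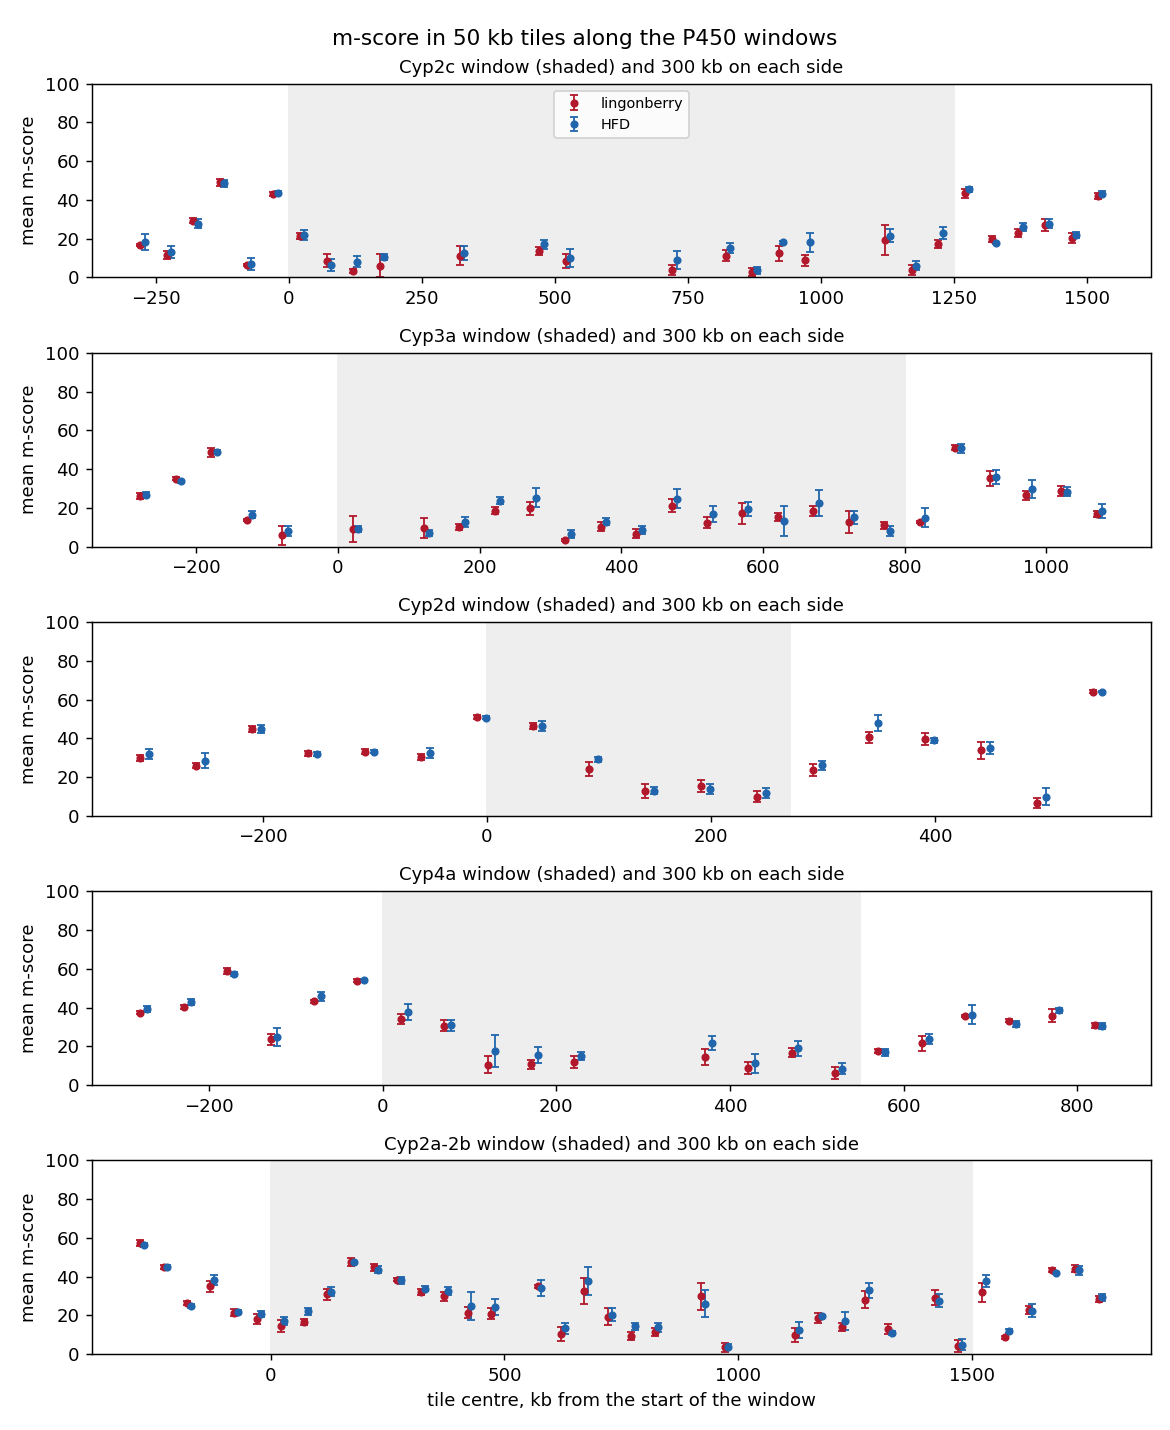
Mean m-score (0 methylated, 100 unmethylated) in 50 kb tiles with at least 5 sites along each window, shaded, and 300 kb on each side, against the distance of the tile from the window's start. Points are group means of 4 livers and bars are SD, for lingonberry livers and HFD livers. Scores are low throughout Cyp2c and Cyp3a and, in Cyp2d, Cyp4a and Cyp2a-2b, highest in the low-coordinate part of the window.

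The most unmethylated places can be read in single livers. In Cyp2a-2b the highest site, at chromosome 7 position 26540243, scored 93.5, 93.0, 90.4 and 95.9 in lingonberry livers and 89.3, 91.6, 92.8 and 93.8 in HFD livers, from 31 to 123 HpaII tags each. It belongs to a group of 10 sites, from 26539335 to 26540280, with gaps of at most 500 bp. That group averaged 76.66 ± 2.76 in lingonberry livers and 72.71 ± 5.46 in HFD livers (SD, n = 4 each). Both groups of livers overlapped, and all 8 were far toward the unmethylated end. The highest group of the window, 6 sites from 26503872 to 26504109, averaged 77.42 ± 3.21 in lingonberry livers and 74.55 ± 2.11 in HFD livers, which also overlapped. Both places lie in the first part of the window, which may be outside the P450 span.

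In Cyp2d the highest site, at chromosome 15 position 82230267, scored 83.6, 88.4, 86.3 and 90.8 in lingonberry livers and 92.5, 86.3, 82.7 and 91.3 in HFD livers. A group of 7 sites near the window's start, from 82184274 to 82185063, averaged 69.73 ± 2.05 in lingonberry livers and 69.58 ± 4.77 in HFD livers. In Cyp4a the highest site, at chromosome 4 position 114759026, scored 85.0, 82.3, 78.5 and 75.3 in lingonberry livers and 73.8, 79.4, 67.8 and 77.2 in HFD livers. It lies 9.03 kb inside the window. In each of these places the livers of the diets overlapped.

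Cyp2c and Cyp3a had no site of that kind, and their highest sites varied more between livers. The highest of Cyp2c, at chromosome 19 position 39063963, scored 72.3, 70.3, 78.4 and 59.1 in lingonberry livers and 78.3, 73.7, 74.2 and 50.1 in HFD livers, from 6 to 28 tags. The highest of Cyp3a, at chromosome 5 position 146359067, scored 61.3, 71.7, 78.8 and 52.4 in lingonberry livers and 79.4, 82.5, 80.7 and 79.3 in HFD livers. All 4 HFD livers were above all lingonberry livers at the Cyp3a site, and its difference of -14.4 had an adjusted p of 0.83 (limma, over 920200 sites). The most unmethylated 50 kb tile averaged 21.66 in Cyp2c and 22.88 in Cyp3a, against 35.86 in Cyp4a, 46.40 in Cyp2d and 47.49 in Cyp2a-2b. At the other extreme, the Cyp2c tile from 39900001 to 39950000 averaged 3.17, with 18.1 tags from 5 sites over all 8 livers.

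Diet was compared next, first over all 950 sites. Their mean score was 24.08, 23.09, 24.13 and 24.09 in lingonberry livers, against 24.97, 25.70, 26.04 and 25.94 in HFD livers. All 4 lingonberry livers were below all 4 HFD livers. The means were 23.85 ± 0.507 and 25.66 ± 0.482 (SD, n = 4 each), a difference of -1.82 (SE 0.35, two-sided exact permutation test over 70 assignments, p = 0.0286, the smallest this design allows). Other autosomal sites fell as well, to 28.58 ± 0.409 in lingonberry livers against 29.94 ± 0.616 in HFD livers, a difference of -1.36 with the same exact p. The lower score was therefore not particular to the P450 arrays. The P450 difference lost its call without lingonberry replicate 2 (-1.56, exact p = 0.0571), with an MspI minimum of 50 tags (-0.825, exact p = 0.257) and from summed tags (-0.963, exact p = 0.114).

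By family, all 5 mean scores were lower with lingonberries and none passed the threshold of 0.05 once adjusted over the 5. With 4 livers against 4, a family that alone has the smallest exact p of 0.0286 can reach an adjusted value no lower than 0.143, and at least 3 families would have to sit at that smallest p to pass. The misses therefore do not show that a family did not differ. Cyp2c scored 11.82, 12.71, 10.02 and 9.17 in lingonberry livers, against 13.76, 13.46, 16.34 and 13.31 in HFD livers. The groups did not overlap, and the means of 10.93 ± 1.62 and 14.22 ± 1.43 (SD, n = 4 each) differed by -3.28 (SE 1.08, exact p = 0.0286, adjusted exact p = 0.143). HFD replicate 3 stood above the other 3 HFD livers.

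Cyp4a had scores of 20.64, 17.39, 19.68 and 21.01 in lingonberry livers, against 22.35, 25.27, 24.03 and 20.39 in HFD livers. HFD replicate 4 lay within the range of the lingonberry livers, and the difference was -3.33 (SE 1.33, exact p = 0.0857, adjusted exact p = 0.143). Cyp3a had 14.09, 12.04, 11.85 and 13.72 in lingonberry livers, against 13.80, 12.71, 16.43 and 17.23 in HFD livers, a difference of -2.12 (SE 1.21, adjusted exact p = 0.179). Without the sites of shared tags, which are 53.1% of Cyp3a, the difference was -0.549 (adjusted exact p = 0.857), and without HFD replicate 4 it was -1.39 (adjusted exact p = 0.321). From summed tags it was -3.66 in Cyp3a and -5.93 in Cyp2c (adjusted exact p = 0.0714 for each). In Cyp4a and Cyp3a the diets overlapped.

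The differences of Cyp2a-2b and Cyp2d were smaller in value, though differences were not tested between families. Cyp2a-2b scored 29.94, 29.16, 31.19 and 30.62 in lingonberry livers, against 30.71, 31.82, 31.41 and 31.96 in HFD livers, a difference of -1.25 (SE 0.52, adjusted exact p = 0.143). Lingonberry replicate 3 lay within the HFD range. Cyp2d scored 30.88, 29.82, 31.98 and 31.65 in lingonberry livers, against 31.95, 32.95, 29.79 and 32.43 in HFD livers, a difference of -0.70 (SE 0.845, adjusted exact p = 0.457). Both directions turned with the processing. With an MspI minimum of 50 tags the difference was 0.243 in Cyp2d and 0.123 in Cyp2a-2b, and from summed tags it was 0.397 in Cyp2a-2b.

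**Figure D3:**
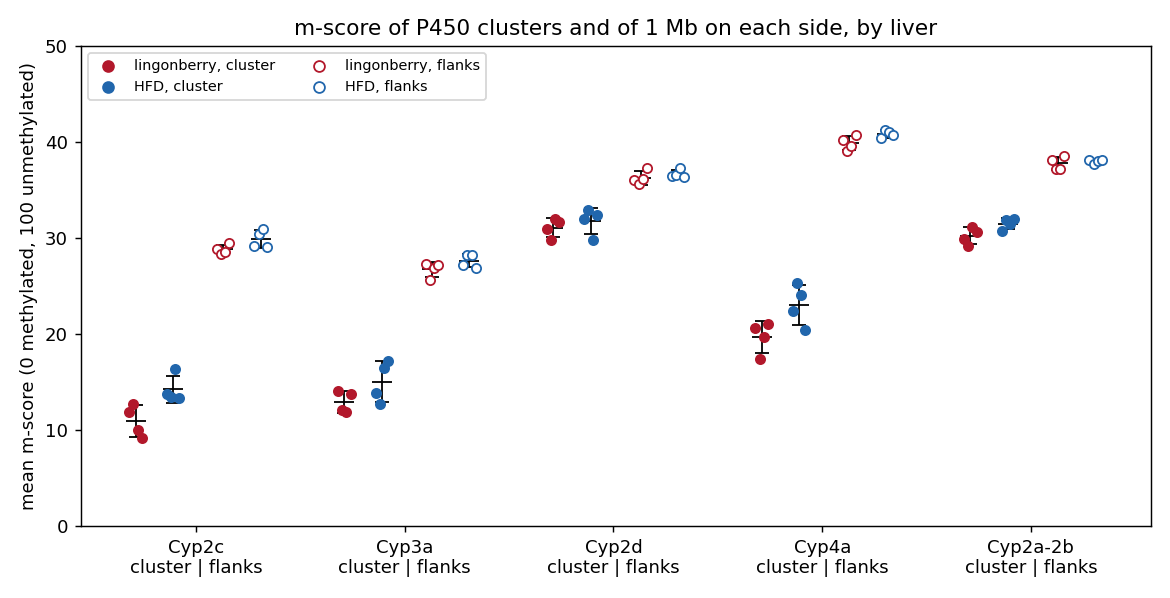
Mean m-score (0 methylated, 100 unmethylated) of each P450 family (filled points) and of its flanks of 1 Mb on each side (open points), for each of 4 lingonberry livers and 4 HFD livers. Lines give the mean and SD. All families lie below their flanks, and the Cyp2c livers of the diets do not overlap, with 9.17 to 12.71 in lingonberry livers and 13.31 to 16.34 in HFD livers.

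Set against neighbouring DNA, no family passed the adjusted threshold. Subtracting the flanks of the same liver left lingonberry minus HFD differences of -2.22 for Cyp2c, -2.38 for Cyp4a, -1.02 for Cyp2a-2b, -1.23 for Cyp3a and -0.319 for Cyp2d. The adjusted exact p was 0.286 for the first 3, 0.571 for Cyp3a and 0.80 for Cyp2d. The limit on adjusted values given above holds here too, so these misses do not show that a family followed its flanks. Without HFD replicate 4 the Cyp3a value was -0.25, without HFD replicate 2 it was -2.20, and without sites of shared tags it was 0.259. The Cyp2c value was -1.41 without lingonberry replicate 4. The flanks themselves differed by -1.07, -0.953, -0.231, -0.888 and -0.381 in the same order. Score changes with diet also depended on crowding across the genome. Other autosomal sites that were isolated averaged 17.57 in lingonberry livers and 20.37 in HFD livers, and those with 5 or more neighbours averaged 70.15 in lingonberry livers and 68.20 in HFD livers. From the density of its sites alone, Cyp2c would differ by -1.96, Cyp3a by -2.04, Cyp2d by -1.43, Cyp4a by -2.06 and Cyp2a-2b by -1.33. What remained beyond that was -1.33 for Cyp2c (SE 1.07, adjusted exact p = 0.786) and -1.27 for Cyp4a (SE 1.06, adjusted exact p = 0.786). Leaving out single libraries moved these to between -2.12 (without lingonberry replicate 2) and -0.657 (without lingonberry replicate 4) in Cyp2c, and between -1.91 (without HFD replicate 4) and -0.584 (without HFD replicate 2) in Cyp4a. It was -0.0767 for Cyp3a, 0.732 for Cyp2d and 0.0774 for Cyp2a-2b, each with an adjusted exact p of 0.971. None of the 5 remainders passed the threshold.

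**Figure D4:**
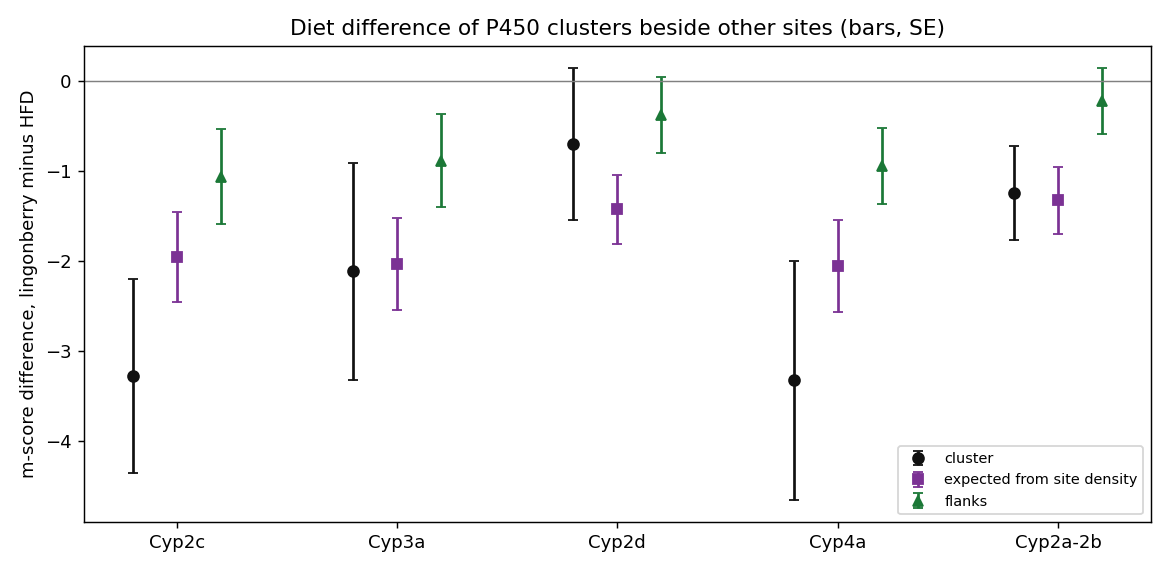
Difference in mean m-score, lingonberry minus HFD, for each P450 family, for the score expected from the density of its sites, and for its flanks of 1 Mb on each side. Bars are the SE of the difference (n = 4 livers each). The family values run from -3.33 in Cyp4a to -0.70 in Cyp2d, beside expected values of -2.06 and -1.43.

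Split by crowding, the P450 sites of the families together gave these values. Isolated P450 sites averaged 19.41 ± 0.546 in lingonberry livers and 22.61 ± 0.805 in HFD livers, and the diets did not overlap. Sites with 1 to 4 neighbours averaged 21.68 ± 0.593 in lingonberry livers and 22.79 ± 0.758 in HFD livers. The 87 crowded sites averaged 55.87 ± 1.51 in lingonberry livers and 55.01 ± 1.78 in HFD livers, with overlap. In Cyp2a-2b the crowded sites averaged 69.62 ± 1.53 in lingonberry livers and 68.18 ± 2.14 in HFD livers, so their difference of 1.45 had the opposite sign to that of its isolated sites, -2.61. The few crowded sites of the other families were lower in value with lingonberries, with differences of -2.76 in Cyp2c, -1.13 in Cyp3a, -0.386 in Cyp4a and -0.272 in Cyp2d. Other autosomal sites differed by -2.80 where isolated, -1.23 with 1 to 4 neighbours and 1.95 where crowded. The P450 sites together differed by -3.20, -1.11 and 0.862 in the same order, so each class had the sign of its background. These class values are a description and were not tested.

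The tags gave a view without the MspI reference. Per 1000000 HpaII tags of its library, Cyp2c held 25.1 ± 3.54 in lingonberry livers and 36.9 ± 4.08 in HFD livers. Cyp3a held 33.2 ± 1.67 in lingonberry livers and 42.2 ± 5.12 in HFD livers. In each the diets did not overlap (two-sided exact permutation p = 0.0286, adjusted over 5 families exact p = 0.0714), and with 2 families at the smallest p the adjusted value could not be lower. No such value was taken for flanks or other autosomal sites, so these families are not set apart by it. In log2 tags per 1000000, the median difference was -0.133 over all 50 kb tiles, against -0.281 in P450 tiles. In Cyp3a 53.1% of sites had shared tags, and these were not left out here. Cyp4a held 49.5 ± 2.76 in lingonberry livers and 54.3 ± 7.47 in HFD livers, and Cyp2d 78.3 ± 3.74 in lingonberry livers and 80.9 ± 4.20 in HFD livers. Cyp2a-2b held 505.8 ± 9.76 in lingonberry livers and 499.6 ± 12.8 in HFD livers, with an adjusted exact p of 0.457 for each of these last 3 families. The counts behind them are modest in the methylated arrays, as Cyp2c had 154 to 418 tags per lingonberry library and 236 to 265 per HFD library. With all libraries thinned to 5858601 tags, the mean scores still differed by -3.81 in Cyp2c and -2.17 over all families.

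Divided along the windows, the diet difference was spread and not confined to a single place in Cyp2c. From the low to the high coordinate, its 5 parts differed by -1.74, -2.69, -3.36, -5.35 and -3.48. Lingonberry livers were all below HFD livers in parts 2, 4 and 5. In part 4, from 39800001 to 40050000, the means were 10.51 ± 1.71 in lingonberry livers and 15.85 ± 0.553 in HFD livers. In Cyp3a the parts differed by 1.22, -3.74, -2.50, -2.86 and -1.21, and the diets did not overlap in the second. In Cyp4a all 5 parts were lower, by -1.22 to -5.71, with overlap in each. Cyp2d had parts of both signs, 0.633, -4.39, 3.69, -0.172 and -1.96, the third resting on 6 sites. In Cyp2a-2b the first part, with most of the unmethylated sites, differed by -0.66, the second by -2.05 without overlap, and the third by -3.63. Other autosomal sites together also kept the diets apart, at 28.02 to 29.00 in lingonberry livers and 29.40 to 30.76 in HFD livers. The parts were not tested, and no share of like parts was counted genome-wide, so a lack of overlap does not mark a part as particular.

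Among 50 kb tiles with at least 5 sites, 0 of 69 P450 tiles passed an adjusted p of 0.05 with limma, against 0 of 42493 genome-wide (0%). The smallest adjusted p was 0.255. At an unadjusted p below 0.05, 10 of the 69 tiles passed (14.5%), against 12.5% genome-wide, and all 10 were lower with lingonberries, against 12.0% genome-wide in that direction. Of the 69, 57 were lower without any threshold (82.6%), against 78.5% of all tiles, so the P450 tiles were near the background in each count. The median tile difference was -2.43 in the P450 windows and -1.66 over all tiles. With log2 HpaII tags per 1000000 in place of the score, 0 of the 69 passed, against 4 of 42493 genome-wide. On that scale 15 had an unadjusted p below 0.05, against 6921 of 42493 genome-wide. By family, 14 of 15 tiles were lower in Cyp2c, 9 of 9 in Cyp4a, 12 of 15 in Cyp3a, 4 of 5 in Cyp2d and 18 of 25 in Cyp2a-2b.

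The Cyp2c tile with the smallest p, from 40000001 to 40050000, scored 7.46, 13.0, 7.63 and 6.91 in lingonberry livers and 15.3, 12.5, 23.6 and 20.8 in HFD livers. Lingonberry replicate 2 exceeded HFD replicate 2, so the diets overlapped, and the difference of -9.31 (SE 2.62) had an adjusted p of 0.255 by limma. In Cyp2a-2b the tile from 26350001 to 26400000 scored 16.3, 17.2, 18.2 and 14.8 in lingonberry livers and 19.7, 24.1, 22.4 and 22.3 in HFD livers, with no overlap (difference -5.50, SE 1.71, limma adjusted p = 0.277). It holds 20 sites, 7 of them with shared tags. In Cyp3a the tile from 146350001 to 146400000 averaged 18.59 ± 1.75 in lingonberry livers and 23.78 ± 1.95 in HFD livers, also without overlap (limma adjusted p = 0.295). That tile's difference of -5.19 was 0.0534 with an MspI minimum of 1 tag.

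Sites in runs of 3 or more, each no farther than 500 bp from the next, formed 49 groups, of which 37 lay in Cyp2a-2b, 7 in Cyp2d, 3 in Cyp4a and 2 in Cyp2c. Cyp3a had none. By limma 0 of the 49 passed an adjusted p of 0.05, against 0 of 63039 genome-wide (0%), with a smallest adjusted p of 0.777. At an unadjusted p below 0.05, 2 passed (4.08%), against 6.40% genome-wide, both lower with lingonberries, a direction in which 3.36% passed genome-wide. Without a threshold 23 of 49 were lower (46.9%), against 49.9%. With log2 tags per 1000000, 0 passed, against 0 of 63039 genome-wide. On that scale 7 had an unadjusted p below 0.05, against 4967 of 63039 genome-wide. These groups of the P450 arrays thus gave no call by diet.

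Single sites were tested across the genome with limma, and 0 of the 950 P450 sites passed an adjusted p of 0.05, against 90 of 920200 (0.00978%). The smallest adjusted p was 0.586. At an unadjusted p below 0.05, 58 passed (6.11%), against 5.16% genome-wide. Of these, 41 were lower with lingonberries (4.32%), against 3.23% genome-wide. Without a threshold 498 were lower (52.4%), against 51.3%. With log2 tags per 1000000, 0 passed, against 117 of 920200 genome-wide. On that scale 60 had an unadjusted p below 0.05, against 50305 of 920200 genome-wide. By family the unadjusted calls were 11 lower and 1 higher of 138 sites in Cyp2c, and 3 and 5 of 147 in Cyp3a. They were 4 and 0 of 98 in Cyp2d, 4 and 1 of 89 in Cyp4a, and 19 and 10 of 478 in Cyp2a-2b. These counts were not tested between families or against the genome-wide shares.

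The sites with the smallest p show what such differences rest on. In Cyp2c, position 40256017 scored 48.2, 45.7, 44.2 and 29.4 in lingonberry livers and 54.0, 63.7, 66.7 and 69.9 in HFD livers, from 7 to 21 tags a library. The diets did not overlap, with 41.86 ± 8.50 in lingonberry livers and 63.58 ± 6.84 in HFD livers (difference -21.7, SE 5.28, limma adjusted p = 0.83). In Cyp2d, position 82206420 scored 24.3, 46.9, 25.5 and 23.1 in lingonberry livers and 65.4, 49.8, 53.1 and 56.3 in HFD livers, from 2 to 9 tags a library (difference -26.2, limma adjusted p = 0.83). Here too the diets did not overlap. A nearby site, at position 82206397, went the other way, with 32.2, 34.2, 49.2 and 74.2 in lingonberry livers and 0, 27.3, 0 and 43.0 in HFD livers, from 0 to 8 tags.

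In Cyp4a, position 115126735 had the widest difference of the named sites, with 14.4, 22.7, 34.8 and 0 in lingonberry livers and 42.7, 66.3, 78.5 and 29.6 in HFD livers. It rested on 26 tags over the 8 libraries, and the diets overlapped (difference -36.3, SE 12.6, limma adjusted p = 0.83). In Cyp3a, position 146769559 was higher with lingonberries, with 46.9, 19.4, 10.8 and 35.0 in lingonberry livers, against 0, 0, 0 and 8.90 in HFD livers, from 14, 3, 1 and 6 tags in lingonberry libraries and 0, 0, 0 and 1 in HFD libraries (limma adjusted p = 0.83). The diets did not overlap there.

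In Cyp2a-2b the smallest p was at chromosome 7 position 26345236, with 0.402, 0.325, 0 and 0.951 in lingonberry livers and 1.84, 1.99, 2.76 and 2.62 in HFD livers. All 8 livers were at the methylated end, and the difference of -1.88 (limma adjusted p = 0.586) rested on 12.5 shared tags over 292 MspI tags. A site at the other end of the scale, position 26504026, was higher with lingonberries. It scored 84.6, 80.1, 85.0 and 80.4 in lingonberry livers and 77.9, 76.8, 76.4 and 77.2 in HFD livers, without overlap and from 38 to 165 tags a library (difference 5.47, SE 1.55, limma adjusted p = 0.83). With 568 tags in all, it had the most HpaII tags of the sites named for their p.

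Of the settings tried, 3 brought a single P450 site past the threshold, a different one each time, and these sites were picked after their values were seen. With libraries thinned to equal depth it was position 40203167 in Cyp2c, with 9.2 tags in all before thinning (difference -21.4, limma adjusted p = 0.0161). Without HFD replicate 2 it was 39210317 in Cyp2c (-22.5, limma adjusted p = 0.0486), and without HFD replicate 3 it was 26389426 in Cyp2a-2b (-11.4, limma adjusted p = 0.00387), each from 3 tags in all. Genome-wide, these settings passed 341, 422 and 477 of 920200 sites in the same order, against 1 of the 950 P450 sites each time. No P450 site passed with all 8 libraries at their own depth.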

How the data were processed

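HELP-tagging was run on liver DNA of 8 mice, 4 per diet. Per the file headers each deposited site has an m-score, a score from 0 to 100, and conf, a non-negative signal. Their meaning was worked out from the values: the score is the angle, and conf the length, of the vector of MspI and HpaII tags, from which both tag numbers were recovered. Recovered HpaII values were whole, within 0.02, at 96.1% to 97.0% of sites above 0. A single MspI reference had been scaled to each library. The submitters' processing notes name mm9 and CASAVA, and state neither the aligner nor the tag filters. The labels give no batch.

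The 28 pairs of libraries correlated at 0.824 to 0.897 across sites, with a chi-square per site of 1.67 to 2.94, so all 8 were kept. The 5 windows, and the families, tests and gene names, were chosen with earlier results of these data known. Means of sites with at least 10 MspI tags were compared by two-sided exact permutation tests with Benjamini-Hochberg adjustment over 5 families. Sites, tiles and groups were tested over the whole genome with limma 3.58.1 (R 4.3.3) with a mean trend. A check on simulated data changed only features with many tags and middle scores. It does not cover sites with few tags, as most single P450 sites are. The log2 alternative added a pseudocount of 0.5 to tags per 1000000. Per family, the named sites, among those with at least 8 HpaII tags over all libraries, were the 2 with the smallest p in each direction and the 2 with the highest score. The named tiles were the highest, the lowest and the one with the smallest p, and the named groups the 2 highest and the one with the smallest p. Where many values were alike, only part is printed. Family tags per 1000000, the window parts and the comparison of shared with other tags were added after the data were seen. Promoters were matched to RefSeq tables of GRCm38.p6 by symbol and compared with Biopython 1.88.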

Additional observations from a re-analysis of the deposited data

Results flagged for a closer look

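A liver is listed where it stood far from the other 3 of its diet, by its gap divided by the range of the 4, past Dixon's critical value. Of 138 sets of 4 values, 17 had such a liver. Chance gives about 1 in 20, or 6.9 of these, and the sets overlap. None was weighed further.

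Among family means, HFD replicate 3 was high in Cyp2c (16.34, ratio 0.851) and was low in Cyp2d after subtraction of the density-based score (-0.233, ratio 0.915). Lingonberry replicate 2 was low over all families (23.09, ratio 0.952) and low in Cyp4a minus its flanks (-21.69, ratio 0.876). Lingonberry replicate 3 was high in Cyp2a-2b minus its flanks (-5.98, ratio 0.881).

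In Cyp2c, HFD replicate 4 was low at position 39063963 (50.1, ratio 0.837). Lingonberry replicate 2 was high in the tile from 40000001 (13.0, ratio 0.881) and low in the group from 40218465 (0, ratio 0.88), where the other 3 had 1 to 3 tags. In Cyp3a, HFD replicate 4 was the only HFD liver with a tag at 146769559 (8.90, ratio 1). HFD replicate 1 was low in the tile from 146600001 (17.58, ratio 0.848), and lingonberry replicate 2 was low in the tile from 146350001 (15.97, ratio 0.933).

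In Cyp2d, lingonberry replicate 2 was high at 82206420 (46.9, ratio 0.9) and lingonberry replicate 3 low at 82247706 (81.0, ratio 0.843). HFD replicate 3 was low in the tile from 82200001 (42.48, ratio 0.884), and HFD replicate 4 was the only HFD liver above 0 in the group from 82363694 (6.58, ratio 1). In Cyp2a-2b, lingonberry replicate 1 was the only lingonberry liver with a tag at 27504236 (5.87, ratio 1) and was high in the group from 26588628 (6.74, ratio 0.853).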

How the results depend on the processing

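Differences are in m-score, lingonberry minus HFD unless a level is named. With an MspI minimum of 1 tag, Cyp2d minus flanks was 0.065, and the level against other autosomal sites was -0.146 in Cyp2d and -0.371 in Cyp2a-2b. With a minimum of 50 tags the mean was 0.243 in Cyp2d, 0.123 in Cyp2a-2b and -0.825 over all families, and the Cyp2d level -6.64. Without shared tags, Cyp3a and Cyp2d minus flanks were 0.259 and 0.217, and Cyp3a minus its density-based score 1.16. From summed tags the mean was 0.397 in Cyp2a-2b and -0.963 over all, Cyp4a minus its density-based score 0.818, and the Cyp2d level -3.94. With edges moved by 100 kb, Cyp3a minus its density-based score was 5.57e-05 and the levels of Cyp4a and Cyp2a-2b 4.47 and 0.276. Thinned libraries gave 1 of the 950 P450 sites past the threshold, against 341 of 920200 sites genome-wide. The causes of these changes were not tested.

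Leaving out each library in turn gave -2.05 to -1.56 over all families. It brought 0 to 1 of the 950 P450 sites past the threshold, against 0 to 514 of 920200 sites genome-wide. It gave -1.20 to 0.115 for Cyp2d minus flanks. For the difference from the density-based score it gave -0.917 to 0.882 in Cyp3a, -0.221 to 1.09 in Cyp2d and -0.217 to 0.365 in Cyp2a-2b. Of 652 values of named features, 644 kept their direction and side of the threshold or moved within the spread, 6 moved further and 2 changed sign. These were 0.0534 for the Cyp3a tile from 146350001 with an MspI minimum of 1 tag, and the Cyp2d group from 82363694, which ran from -0.168 without lingonberry replicate 1 to 5.33 without lingonberry replicate 2.

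Every other value for families, tiles and groups kept its direction and side of the threshold under the alternatives run, though sizes moved. Leaving out each library gave -2.96 to -1.41 for Cyp2c minus flanks, -2.20 to -0.25 for Cyp3a and -3.21 to -1.77 for Cyp4a. No paired analysis was possible because the replicate numbers used here only follow the order of the samples within each diet, and nothing in the labels ties a lingonberry mouse to an HFD mouse. With 4 livers against 4 the exact p cannot go below 0.0286, nor the adjusted p of a single family below 0.143. The median P450 site had 1.62 HpaII tags a library, so single sites allow no statement on small differences.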
